A study of Arabidopsis thaliana with 6 samples.

Results

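The PSEUDO-RESPONSE REGULATOR (PRR), GIGANTEA (GI) and ZEITLUPE (ZTL) genes of the circadian clock were followed in cpl2-2 and wild-type seedlings of Arabidopsis thaliana. The group was chosen by locus identifier and holds 9 of the 38192 genes in the deposited count table: PRR9, PRR7, PRR5, PRR3 and TOC1 (also known as PRR1), GI, and the family of FKF1, ZTL and LKP2. Of the 9, 8 had enough counts for the test and PRR9 did not. The samples were 3 libraries of cpl2-2, labelled as a knockout of CPL2, and 3 of the wild type (WT, accession Col). All were made from above-ground parts of seedlings 9 days old, kept at 23 °C with 16 h of light and 8 h of darkness. CPL2 encodes a phosphatase-like protein related to enzymes that remove phosphate from the tail domain of RNA polymerase II. The labels state no hour of collection, to which the level of a gene with a daily cycle belongs.

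The PRR proteins are repressors of transcription that accumulate in succession through the day, with PRR9 in the morning, PRR7 and PRR5 later and TOC1 in the evening, and they repress the dawn genes CCA1 and LHY. GI is a large protein particular to plants that binds and stabilises ZTL in blue light and acts with FKF1 in the photoperiodic control of flowering. FKF1, ZTL and LKP2 are blue-light receptors and F-box proteins. They mark other proteins for breakdown: ZTL acts on TOC1 and PRR5, and FKF1 on the CDF repressors of CO and FT.

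Of the 8 members tested, 6 were lower in cpl2-2 (PRR7, PRR5, PRR3, TOC1, GI and FKF1), 0 were higher, and ZTL and LKP2 did not pass the test. At an unadjusted p under 0.05, 1 member (ZTL) was higher, and DESeq2 and limma-voom also called 0 higher. GI and PRR7 stood at 53.5% and 55.2% of their WT levels, PRR5 at 66.9%, and PRR3, TOC1 and FKF1 between 81.0% and 83.9%. Over all 19302 genes tested, 27.3% were called in either direction, 13.3% lower and 14.1% higher, at an adjusted p under 0.05 in edgeR's quasi-likelihood test. That near-even split of 2560 lower and 2717 higher became 1671 lower and 3951 higher with unscaled library totals. Under those totals the same number of members, 6, was lower, and 1 (ZTL) was called higher (0.22, adjusted p = 0.017). ZTL was also called higher without WT replicate 3. The median log2 fold change (cpl2-2 over WT) of the 8 members was -0.28, against -0.002 over all genes. Every cpl2-2 library was below every WT library for the same 6 members, an arrangement found for 19.2% of all genes tested (the opposite one, found for 0 members, for 19.8%).

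The 300 bases before the annotated start of each member were searched on both strands for the evening element (AAAATATCT), the letters through which dawn MYB factors such as CCA1 act on evening genes, for the related CCA1-binding site (AAAAATCT) and for the G-box (CACGTG). The evening element was found in PRR5, TOC1 and FKF1, which were all lower in cpl2-2, and in 2.51% of the 37998 windows of the same length before the nuclear genes of the table, 3890 of which are described there as transposable element genes. These 3 windows are shown because they carry that element, and PRR7 because it holds a G-box, as do 5.97% of windows. Each runs 5′ to 3′ on the strand of its gene and ends at the base before the start; capitals mark matches. The windows are chr5:8358547-8358846 (minus strand), chr5:24674663-24674962 (plus), chr1:25508339-25508638 (plus) and chr5:642031-642330 (minus), from the RefSeq copy of the genome, TAIR10.1.
PRR5: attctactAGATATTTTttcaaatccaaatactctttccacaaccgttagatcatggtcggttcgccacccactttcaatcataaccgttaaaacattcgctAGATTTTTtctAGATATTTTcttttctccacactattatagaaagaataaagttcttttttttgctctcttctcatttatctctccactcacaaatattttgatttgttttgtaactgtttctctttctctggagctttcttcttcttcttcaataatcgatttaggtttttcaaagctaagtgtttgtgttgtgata
TOC1: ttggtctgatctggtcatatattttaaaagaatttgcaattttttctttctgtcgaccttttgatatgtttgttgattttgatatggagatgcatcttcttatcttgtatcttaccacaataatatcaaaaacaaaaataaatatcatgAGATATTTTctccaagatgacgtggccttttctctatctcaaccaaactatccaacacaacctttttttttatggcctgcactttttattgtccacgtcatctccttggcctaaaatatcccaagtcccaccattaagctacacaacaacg
FKF1: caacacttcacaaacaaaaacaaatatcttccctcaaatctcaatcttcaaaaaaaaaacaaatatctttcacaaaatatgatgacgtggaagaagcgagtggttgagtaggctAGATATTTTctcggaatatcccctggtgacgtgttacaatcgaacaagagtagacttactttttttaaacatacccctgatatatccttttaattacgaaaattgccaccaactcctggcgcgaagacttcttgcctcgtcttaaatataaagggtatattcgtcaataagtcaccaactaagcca
PRR7: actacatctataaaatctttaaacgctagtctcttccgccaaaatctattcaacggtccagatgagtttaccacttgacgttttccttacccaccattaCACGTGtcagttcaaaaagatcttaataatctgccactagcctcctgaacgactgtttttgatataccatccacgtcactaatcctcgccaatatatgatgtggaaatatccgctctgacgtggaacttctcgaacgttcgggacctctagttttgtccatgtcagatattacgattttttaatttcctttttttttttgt
The PRR5 window held the evening element 2 times and, between them, 1 CCA1-binding site, all on the strand opposite to the gene. In TOC1 and FKF1 the element stood 1 time each, also on the opposite strand. Its match in the printed windows began 151 and 186 bases before the start. PRR9 held the G-box 2 times and LKP2 the CCA1-binding site 1 time, a motif present in 7.31% of all windows. No window of GI, PRR3 or ZTL held any of these 3 strings, and bases outside the windows were not searched. A match is a string of letters and not a measured binding site, and the members called lower include both windows with and windows without the evening element.

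Among the PRR genes, PRR7 and PRR5, which act in the middle of the day, differed most. PRR7 (AT5G02810; chromosome 5, 637681 to 642030, minus strand) had 6.18, 4.79 and 5.92 CPM (counts relative to library size, with TMM factors) in the cpl2-2 libraries, against 9.09, 10.1 and 11.3 CPM in the WT libraries. The genotypes did not overlap, and cpl2-2 replicate 2 was lowest. The log2 fold change was -0.86 (SE 0.14, adjusted p = 5.3e-06), from 339 counts over the cpl2-2 and 625 over the WT libraries. PRR5 (AT5G24470; chromosome 5, 8356204 to 8358546, minus strand) had 9.49, 8.20 and 9.36 CPM in cpl2-2, against 11.8, 15.5 and 13.0 CPM in WT. Its libraries were also separate, with a wider spread in WT (SD 1.89 CPM) than in cpl2-2 (SD 0.710 CPM). Its log2 fold change was -0.58 (SE 0.12, adjusted p = 0.00017).

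TOC1 and PRR3, which are expressed towards evening, fell by smaller amounts. TOC1 (AT5G61380; chromosome 5, 24674963 to 24678550, plus strand) had 93.2, 89.5 and 93.2 CPM in cpl2-2, against 110.2, 111.7 and 108.9 CPM in WT. It was the most abundant member and the least variable, with a coefficient of variation of 2.32% in cpl2-2 and 1.27% in WT, so that its log2 fold change of -0.26 (SE 0.04, adjusted p = 6.2e-06) was outside the spread of its libraries. PRR3 (AT5G60100; chromosome 5, 24197971 to 24201415, minus strand), a protein that binds TOC1 and hinders its breakdown through ZTL, had 40.8, 41.4 and 34.6 CPM in cpl2-2, against 45.7, 44.4 and 49.2 CPM in WT. The genotypes did not overlap, and cpl2-2 replicate 3 lay apart below the other two. The log2 fold change of PRR3 was -0.25 (SE 0.07, adjusted p = 0.0036). Without cpl2-2 replicate 3 the call was lost (-0.17, adjusted p = 0.068).

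PRR9 (AT2G46790; chromosome 2, 19232607 to 19235179, plus strand), the morning member, was nearly absent from both genotypes. It had 1, 0 and 3 counts in the cpl2-2 libraries and 0, 1 and 0 in the WT libraries. The ratio of the summed counts, 4.05, had a 95% counting interval (exact, from the binomial distribution, counting error only) of 0.401 to 199.7, so no direction could be read at this depth. The dawn gene CCA1 was also scarce, with 4, 7 and 12 counts in the cpl2-2 libraries and 9, 5 and 7 in the WT libraries.

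GI (AT1G22770; chromosome 1, 8061751 to 8067790, plus strand) showed the largest difference of the members, closely followed by PRR7. It had 14.5, 13.1 and 11.5 CPM in the cpl2-2 libraries, against 26.7, 22.0 and 24.6 CPM in the WT libraries. The highest cpl2-2 library was below the lowest WT library. The log2 fold change was -0.90 (SE 0.10, 95% interval -1.10 to -0.71, adjusted p = 2.1e-10), from 788 counts over cpl2-2 and 1497 over WT. PRR7 differed more than GI without cpl2-2 replicate 3 (PRR7 -0.90, GI -0.82) and without WT replicate 1 (PRR7 -0.94, GI -0.84).

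The family of FKF1, ZTL and LKP2 was divided. FKF1 (AT1G68050; chromosome 1, 25508639 to 25510907, plus strand) had 33.4, 36.2 and 32.6 CPM in cpl2-2, against 44.2, 42.7 and 39.3 CPM in WT. The groups were separate and the log2 fold change was -0.30 (SE 0.07, adjusted p = 0.00046). Its last 21 bases overlap AT1G68060 on the opposite strand, which was itself lower (-0.18, adjusted p = 0.038). The table describes 2 other loci, AT5G23410 and AT5G42730, by the FKF1 protein, and whether reads were split with them was not tested. ZTL (AT5G57360; chromosome 5, 23241320 to 23244590, plus strand) had 43.8, 41.6 and 39.3 CPM in cpl2-2, against 35.1, 34.2 and 42.9 CPM in WT. The groups overlapped because WT replicate 3 lay above 2 of the 3 cpl2-2 libraries. ZTL was not called (log2 fold change 0.15, SE 0.07, 95% interval 0.004 to 0.30, unadjusted p = 0.0437, adjusted p = 0.12). Without WT replicate 3 it was called higher (0.26, adjusted p = 0.0095). LKP2 (AT2G18915; chromosome 2, 8194512 to 8197483, minus strand), the closest relative of ZTL, had 14.1, 17.4 and 16.3 CPM in cpl2-2, against 13.3, 12.9 and 16.2 CPM in WT. It too overlapped, and was not called (0.18, SE 0.11, interval -0.04 to 0.39, adjusted p = 0.23). The gene AT2G18917, which covers 370 bases at its 5′ end on the other strand, had at most 2 counts in any library.

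**Figure D1:**
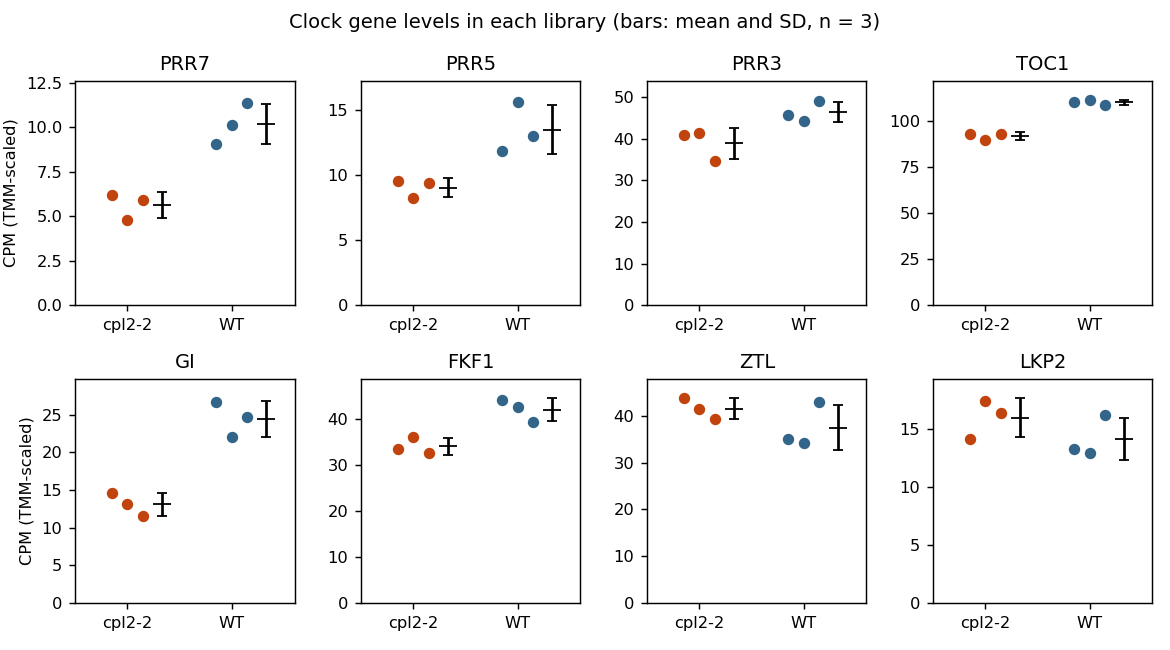
Level of each tested member in CPM (vertical axis, from 0) in the 3 cpl2-2 libraries (orange, left) and the 3 WT libraries (blue, right), with the mean and SD beside them. For PRR7, PRR5, PRR3, TOC1, GI and FKF1 all cpl2-2 points lie below all WT points, whereas for ZTL and LKP2 the genotypes overlap.

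**Figure D2:**
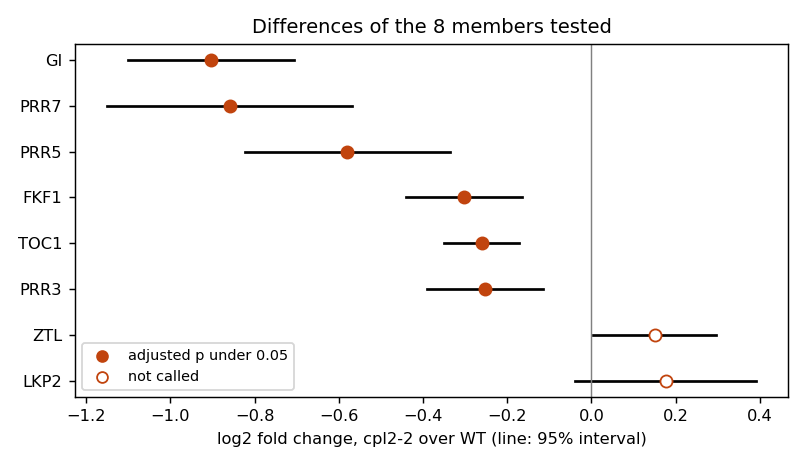
Log2 fold change of cpl2-2 over WT (horizontal axis) with its 95% interval for the 8 members tested; filled points passed an adjusted p of 0.05. GI (-0.90) and PRR7 (-0.86) lie farthest to the left, TOC1 has the narrowest interval, and the points of ZTL (0.15) and LKP2 (0.18) are open.

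Within each library, the ratio of a member to TOC1 does not depend on how libraries are scaled. The log2 ratio of GI to TOC1 was -2.82 ± 0.17 in cpl2-2 and -2.18 ± 0.15 in WT (SD, n = 3 each), a difference of -0.64. For PRR7 the difference was -0.60 and for PRR5 -0.31, while for ZTL it was 0.42 and for LKP2 0.44. For these 5 genes the ratios of the genotypes did not overlap, with an exact two-sided permutation p of 0.1, the smallest that 3 libraries against 3 can give (0.14 adjusted over the 7 ratios). How many of all genes tested separate by their ratio to TOC1 was not computed, so no background share stands beside these 5. The ratios of PRR3 (difference 0.01, exact permutation p = 1) and FKF1 (-0.04, exact permutation p = 0.7) overlapped. The comparison with TOC1 was chosen after the values had been seen. TOC1 was itself lower in cpl2-2 (-0.26), so each difference also holds its fall. By their own log2 fold changes ZTL (0.15) and LKP2 (0.18) overlapped between genotypes and were not called.

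As shares of the summed counts per kb of the 5 PRR genes, TOC1 took 60.9% ± 1.49 in cpl2-2 and 58.6% ± 1.30 in WT, and PRR3 took 25.8% ± 2.33 in cpl2-2 and 24.7% ± 1.36 in WT (SD, n = 3 each). PRR5 took 9.99% ± 0.682 in cpl2-2 and 12.0% ± 1.48 in WT, and PRR7 took 3.23% ± 0.382 in cpl2-2 and 4.70% ± 0.455 in WT. The shares of PRR7 and PRR5 did not overlap between genotypes (exact permutation p = 0.1 for both, the smallest possible), and those of TOC1 and PRR3 did (exact permutation p = 0.2 and 0.4). PRR9 took 0.0577% ± 0.0650 in cpl2-2 and 0.0112% ± 0.0193 in WT (exact permutation p = 0.4). Among the F-box genes, a division examined after the values were seen, FKF1 took 39.7% ± 0.763 in cpl2-2 and 47.7% ± 4.51 in WT (exact permutation p = 0.1). ZTL took 43.1% ± 2.21 in cpl2-2 and 37.5% ± 3.24 in WT (exact permutation p = 0.1). LKP2 took 17.2% ± 1.66 in cpl2-2 and 14.8% ± 1.26 in WT (exact permutation p = 0.2). A share also rises when another gene of the family falls. In the main test FKF1 was lower, and ZTL and LKP2 were not called.

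The order of the levels, taken as CPM per kb of the gene length in the deposited table, differed in the middle of the range. In cpl2-2 it ran TOC1 (32.8 ± 0.759), ZTL (17.0 ± 0.931), FKF1 (15.7 ± 0.875), PRR3 (13.9 ± 1.34), LKP2 (6.81 ± 0.711), PRR5 (5.38 ± 0.423), GI (3.04 ± 0.350), PRR7 (1.74 ± 0.229) and PRR9 (0.0310 ± 0.0344; CPM per kb, SD, n = 3). In WT it ran TOC1 (39.3 ± 0.498), FKF1 (19.4 ± 1.15), PRR3 (16.6 ± 0.885), ZTL (15.3 ± 1.97), PRR5 (8.03 ± 1.13), LKP2 (6.03 ± 0.771), GI (5.68 ± 0.547), PRR7 (3.15 ± 0.349) and PRR9 (0.00759 ± 0.0132). ZTL stood above FKF1 and PRR3 in cpl2-2 and below both in WT, and LKP2 stood above PRR5 in cpl2-2 and below it in WT. Among neighbours, the libraries of ZTL and FKF1 overlapped in cpl2-2, and those of PRR3 and ZTL and of LKP2 and GI overlapped in WT; all other neighbours were separate.

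**Figure D3:**
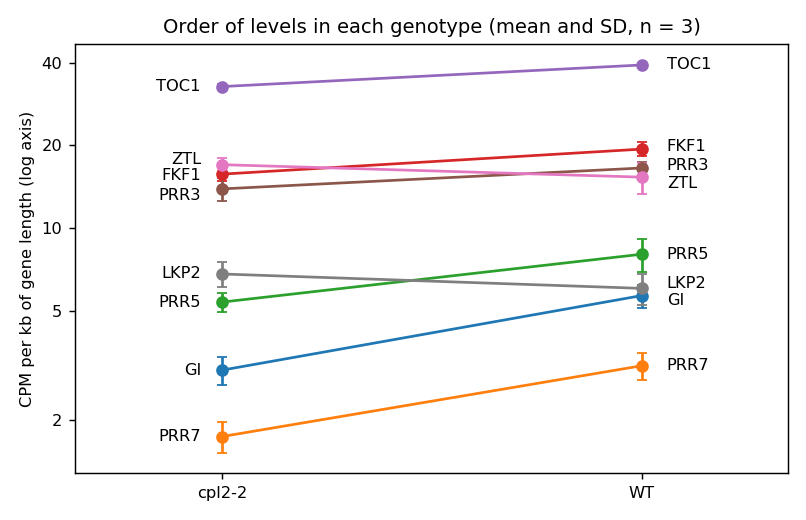
Mean CPM per kb of gene length (vertical axis, log scale) with SD of the 8 tested members in cpl2-2 (left) and WT (right), 3 libraries each. The lines of ZTL and LKP2 run against the other 6: ZTL lies above FKF1 and PRR3 in cpl2-2 and below them in WT, and LKP2 above PRR5 in cpl2-2 and below it in WT.

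Other clock genes were taken from lists written with earlier results of these data known. Of 14 dawn-expressed MYB and LNK genes, 11 were tested, 2 were lower and 1 was higher in cpl2-2 (median log2 fold change 0.06). Beside this list and those below stand the shares over all genes tested, 13.3% called lower and 14.1% called higher. The dawn counts were near these shares. RVE2, a MYB relative of CCA1, had 118 ± 2.78 CPM in cpl2-2 and 148 ± 3.50 in WT (-0.32, adjusted p = 8.3e-09), and LNK1, a coactivator of evening genes, had 3.17 ± 0.431 CPM in cpl2-2 and 5.71 ± 0.895 in WT (-0.85, adjusted p = 0.00059). RVE1, a MYB gene linked to auxin synthesis, rose (0.80, adjusted p = 0.0093). LHY had 1.19 ± 0.252 CPM in cpl2-2 and 0.557 ± 0.417 in WT and was not called (1.09, adjusted p = 0.065). WT replicate 1 had 21 counts of LHY, against 6 and 7 in the other WT libraries, and without it LHY was called higher (1.89, adjusted p = 0.0092). It was also called higher with unscaled library totals (adjusted p = 0.045) and by limma-voom (adjusted p = 0.036). The call of RVE1 was lost without cpl2-2 replicate 1 (adjusted p = 0.058) or WT replicate 1 (0.061).

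Of 13 evening-complex and other clock genes, all tested, 7 were lower and 2 higher in cpl2-2 (median -0.18). LUX, the DNA-binding subunit of the evening complex, had 42.8 ± 3.50 CPM in cpl2-2 and 55.7 ± 3.02 in WT (-0.38, adjusted p = 6.5e-06). ELF4, another subunit, had 120.3 ± 3.67 CPM in cpl2-2 and 87.5 ± 2.26 in WT (0.46, adjusted p = 1.1e-11), opposite in direction to LUX. ELF3, a further subunit, was not called (-0.09, adjusted p = 0.37). BOA, the other gene of this list called higher, had 26.6 ± 0.275 CPM in cpl2-2 and 21.2 ± 1.63 in WT (0.33, adjusted p = 0.0015). JMJ30, a histone demethylase gene that peaks with TOC1, fell (-0.22, adjusted p = 0.00026), as did GRP7, an RNA-binding protein of a slave oscillator (-0.28, adjusted p = 1.2e-09). With unscaled library totals, or without WT replicate 1, 4 genes of the list were called lower.

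Of 17 genes of photoperiodic flowering, all tested, 4 were higher and 1 lower in cpl2-2 (median 0.05). FT, the mobile flowering signal, had 27.7, 29.1 and 27.9 CPM in cpl2-2, against 4.79, 6.04 and 5.65 CPM in WT (2.36, adjusted p = 3.3e-23). TSF, its closest relative, rose by 0.83 and SPA1, which acts with the ubiquitin ligase COP1, by 0.22 on the log2 scale (adjusted p = 2.8e-05 and 0.0022). CDF3, of the repressors that FKF1 and GI remove, fell (-0.69, adjusted p = 0.016). That call was lost without cpl2-2 replicate 1 (adjusted p = 0.091) or WT replicate 3 (0.12). CO, which links these proteins to FT and is named after its values were seen, had 4.01 ± 0.315 CPM in cpl2-2 and 3.56 ± 0.321 in WT and was not called (adjusted p = 0.58).

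Genes for proteins that work with the members were mostly higher. Of 15 genes for SCF ligase subunits, HSP90 chaperones, UBP12 and UBP13, and TOPLESS-type corepressors, 10 were higher and 0 lower in cpl2-2 (median 0.24). Over all genes tested, 14.1% were called higher and 13.3% lower. HSP90, which with GI matures the ZTL protein, was represented by HSP90-1 (27.9 ± 1.47 CPM in cpl2-2 and 10.8 ± 1.33 in WT; 1.37, adjusted p = 2.6e-16), HSP90-2 (0.31, adjusted p = 1.2e-12) and HSP90-3 (0.29, adjusted p = 1.7e-11). HSP90-2 and HSP90-3 are near-identical copies, between which reads may be split, so their single values are uncertain. TPR4, a corepressor of the family that PRR proteins recruit, had 76.3 ± 3.14 CPM in cpl2-2 and 46.8 ± 2.29 in WT (0.71, adjusted p = 2.8e-14). At an unadjusted p under 0.05 in edgeR 0 of the 15 were lower, and DESeq2 and limma-voom called 0 lower.

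Of 10 genes regulated by the clock or by PRR proteins, 9 were tested, 3 were higher and 3 lower. The CO-like genes COL1 (1.05, adjusted p = 6.8e-07) and COL2 (1.14, adjusted p = 0.00015) rose. PIF4, a growth-promoting factor, fell (-0.63, adjusted p = 0.00067), and CBF1, a cold-response regulator repressed by PRR proteins, fell on few counts (8 over cpl2-2 and 53 over WT; 0.127 ± 0.144 CPM in cpl2-2 and 0.863 ± 0.290 in WT; -2.66, adjusted p = 0.0012). Of those 8 counts 6 were in cpl2-2 replicate 2, without which the log2 fold change of CBF1 was -3.94 (adjusted p = 5e-04). LUX, LNK1, RVE1, TPR4, COL1 and COL2 share bases with a gene annotated on the other strand; the partners of RVE1 and TPR4 had 0 counts in every library. The partner of LNK1, AT5G64160, which shares 245 bases with it, had 22.6 CPM in cpl2-2 and 24.6 CPM in WT, above LNK1 itself, and up to 532 counts in a library. The partners of LUX (AT3G46650, up to 60 counts), COL1 (AT5G15845, up to 34) and COL2 (AT3G02370, up to 56, and AT3G02390, up to 18) were scarcer. Their shared stretches were longer, with 1507 bases for LUX, 1807 (its whole span) for COL1, and 771 and 688 for COL2. No source used here says whether reads were counted by strand. The values of these genes, of LNK1 above all, may therefore hold reads of the partner. They may also lack reads in the shared bases, above all for COL1, COL2 and LUX.

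**Figure D4:**
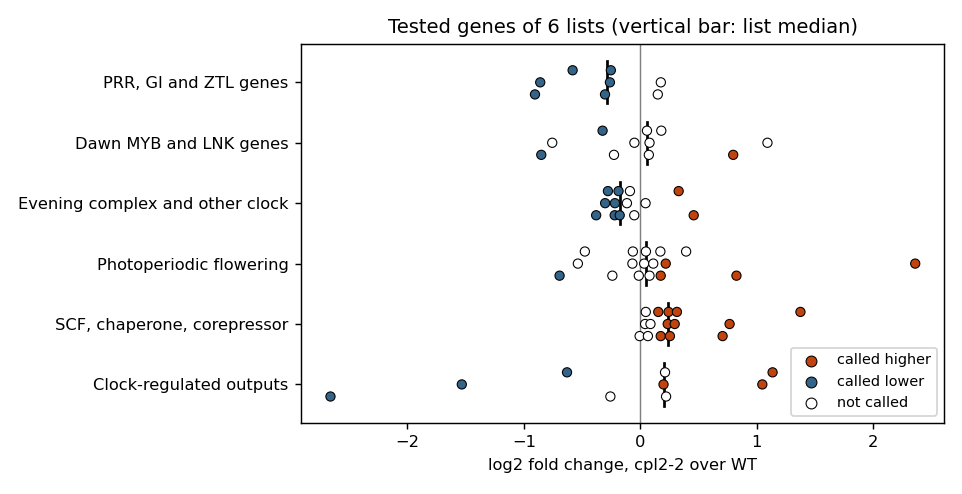
Log2 fold change of cpl2-2 over WT (horizontal axis) for each tested gene of the 6 lists (rows), coloured by call; vertical bars are list medians. Of the PRR, GI and ZTL genes 6 of 8 are called lower (median -0.28), and of the partner genes 10 of 15 are called higher (median 0.24).

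By the root mean square difference of centred log2 CPM over the 6 libraries, the genes most like GI among 14041 others with a mean of at least 5 CPM were PAP29 (0.07), AT4G16870 (0.07), GSL11 (0.11), AT5G21940 (0.11) and AT3G05727 (0.11). PAP29 encodes a purple acid phosphatase, AT4G16870 is annotated as a transposable element gene and GSL11 as a glucan synthase. Those most like PRR7 were CEP3, a cysteine proteinase gene (0.07), AT1G23390, for a kelch F-box protein (0.08), AT1G33600 (0.09), AT5G61590 (0.09) and SOFL1 (0.10). None of these 10 is in the clock lists above. With 2 genotypes, likeness by this measure largely follows the size of the difference between them. The genes named for GI had log2 fold changes from -1.02 to -0.75, and those for PRR7 from -0.95 to -0.76. Shared regulation was not tested.

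The libraries held 18299294 to 20653008 counts in cpl2-2 and 20756428 to 21098728 in WT. CPL2 itself had 10.6, 10.9 and 10.8 CPM in cpl2-2, against 19.3, 18.4 and 19.1 CPM in WT (-0.82, adjusted p = 6.0e-09). Reads of CPL2 thus remained in cpl2-2, at 56.5% of the WT level. Counts by gene do not show which part of the transcript they cover. In such whole-shoot samples, fewer cells of a type and less RNA per cell cannot be told apart. Summed marker levels of phloem (SUC2, APL and AHA3), part of the vascular tissue in which PRR3 is known to act, ran from 242.2 to 246.6 CPM in cpl2-2 and 279.8 to 284.0 in WT, with 2 of 3 genes lower. Guard-cell markers (FAMA, MYB60 and KAT1) ran from 47.9 to 51.9 CPM in cpl2-2 and 63.4 to 64.2 in WT, with 2 of 3 lower. Mesophyll markers (RBCS1A, LHCB2.1 and LHCA1) ran from 22790 to 24080 CPM in cpl2-2 and 29530 to 30640 in WT. Of these, 2 of 3 were lower and 1 (LHCB2.1) was higher. Nearly all of the mesophyll sum was RBCS1A (mean 22180 CPM in cpl2-2 and 28310 in WT). Meristem markers (STM, WUS and CLV3) ran from 6.59 to 8.16 CPM in cpl2-2 and 3.41 to 4.48 in WT. Nearly all of that was STM, the member that could be tested, which was higher. Of the 5 root markers, RHD6, EXPA7 and LRX1 were at 0 counts in all libraries, and the summed level was 1.09 to 1.65 CPM in cpl2-2 and 0.543 to 0.730 in WT, most of it CASP1. The part of these shifts in the results for the clock genes was not tested.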

How the data were processed

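The authors deposited raw counts for each gene, 1 column a library, as read from the values (whole numbers, differing totals). The submitters' processing notes name HISAT2 2.0.5 and TAIR10; how reads were counted, and with which strand setting, is not stated in the labels. Coordinates in the table equalled those of RefSeq TAIR10.1 for 37566 of 37570 nuclear genes matched by locus tag; symbols and sequences came from there, gene lengths from the table.

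Of 38192 genes, 19302 passed edgeR's filterByExpr and were tested with TMM factors and the quasi-likelihood F test (R 4.3.3 with edgeR 4.0.16), with no covariate and Benjamini-Hochberg adjustment over all of them; an adjusted p is from this test unless another tool is named. SE is the log2 fold change over the root of F. The procedure was tested on simulated counts. DESeq2 1.42.0 and limma-voom (limma 3.58.1) were alternatives. Shares and ratios had exact two-sided permutation tests. Replicates, called biological in the design text, differed by more than counting noise (chi-square per degree of freedom 2.68 to 3.70).

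The members and lists were chosen with earlier results of these data known. Named genes are the 9 members, CPL2, up to 4 called genes with the smallest p per list, and cell type markers. The 5 nearest profiles to GI and to PRR7 are also named. CCA1, LHY, CO, ELF3, BOA and genes overlapping a member were named after their values were seen.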

Additional observations from a re-analysis of the deposited data

How the results depend on the processing

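The counts of calls and 30 genes were recomputed under 13 alternatives, but not the marker levels or nearest profiles. The 30 were CPL2, the tested members, the called list genes named other than BOA, and LHY and CO, added after their values were seen. The alternatives were DESeq2 size factors, library totals, no filter or a stricter one, DESeq2, limma-voom, a replicate block, and leaving out each library. Of 390 values, 380 kept their direction and side of the threshold, 5 lost and 5 gained a call, and 0 reversed. GI stayed between -0.99 and -0.82 and PRR7 between -0.94 and -0.75. With library totals ZTL was called higher (0.22, adjusted p = 0.017), which made 1 member higher, as without WT replicate 3. The number of members called lower was 6 in every alternative but the one without cpl2-2 replicate 3 (5). Library totals also gave 1671 genes called lower and 3951 higher over all genes, 4 lower in the evening list and 3 higher in the dawn list, where the median of all genes was 0.07. In the dawn list limma-voom called 2 higher. In the photoperiod list no filter, limma-voom and the replicate block each called 2 lower.

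Leaving out single libraries, the evening list had 4 to 7 lower, the dawn list 1 to 2 higher, the photoperiod list 0 to 2 lower and the members 0 to 1 higher. The log2 ratio of PRR3 to TOC1, which was near 0, ran from -0.061 to 0.098. The cause of these changes was not tested. Library pairs with the same replicate number did not deviate together over the tested genes (r = -0.01, 0.01 and 0.01). These values cannot show whether samples with the same number were grown or prepared together. Under the replicate block 5228 genes were called, against 5277. At this depth PRR9, CCA1 and CBF1 rest on few counts.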

Other observations

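In cpl2-2, replicate 1 was the highest for 4 of the 8 tested members, replicate 2 for 3 and replicate 3 for 1; in WT the highest was replicate 1 for 2, replicate 2 for 2 and replicate 3 for 4. The lowest was replicate 1 for 1, replicate 2 for 3 and replicate 3 for 4 in cpl2-2, and replicate 1 for 2, replicate 2 for 4 and replicate 3 for 2 in WT. ZTL and LKP2 were both highest in WT replicate 3, by 0.21 and 0.20 (log2) above the mean of their genotype, where FKF1 was 0.10 below its own mean.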
